A study of Mus musculus with 4 samples.

Results

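The Kruppel-like factors of axon growth were examined in RNA from mouse retinal cells that had been sorted and labelled RGC, for retinal ganglion cell, the output neuron whose axon runs in the optic nerve. The 10 genes were Klf2, Klf3, Klf4, Klf6, Klf7, Klf9, Klf10, Klf11, Klf13 and Klf15, taken by gene name from a count table of 56493 genes, and each name matched 1 row. All mice were wild type and had an optic nerve crush, an injury of the ganglion cell axons, a month after an adeno-associated virus vector (AAV2) was injected into the vitreous of the eye. In 2 libraries (CrAT) the vector was AAV2-CrAT, made to overexpress carnitine acetyltransferase, and in the other 2 (MCS) it was AAV2-MCS. The labels do not spell out MCS, the tag NCd8 in every title, the age of the mice or how many animals went into a library, so p-values may reflect technical spread between samples only. The labels name no promoter for the vector.

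Kruppel-like factors are transcription factors that bind GC-rich and CACCC sequences through a zinc finger domain at their C-terminal end. In ganglion cells and other central neurons, Klf4 and Klf9 are known to restrain axon growth and Klf6 and Klf7 to promote it, and the balance of these factors shifts towards restraint as the neurons mature. The remaining genes examined include repressors that recruit CtBP (Klf3) or Sin3 (Klf9, Klf10, Klf11 and Klf13), and Klf15, which glucocorticoid hormone induces in several tissues.

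The 250 bases before the start site are shown for the 4 genes of the growth comparison and for Klf13 and Klf15, the genes with the smallest p-values below. They come from RefSeq in GRCm38.p6, are read 5′ to 3′ on the strand of the gene, and lie at chr4:55532476-55532725 (minus strand), chr19:23140976-23141225 (plus), chr13:5861239-5861488 (plus), chr1:64121390-64121639 (minus), chr7:63938916-63939165 (minus) and chr6:90462326-90462575 (plus). Capitals mark the GC box GGGCGG, the E-box CACGTG and the CCAAT box CCAAT, each searched on both strands.
Klf4: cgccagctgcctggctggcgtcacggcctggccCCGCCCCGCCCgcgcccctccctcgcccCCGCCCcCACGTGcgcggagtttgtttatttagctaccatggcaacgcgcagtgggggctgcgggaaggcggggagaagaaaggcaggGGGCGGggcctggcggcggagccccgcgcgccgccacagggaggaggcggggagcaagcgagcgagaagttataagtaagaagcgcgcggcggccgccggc
Klf9: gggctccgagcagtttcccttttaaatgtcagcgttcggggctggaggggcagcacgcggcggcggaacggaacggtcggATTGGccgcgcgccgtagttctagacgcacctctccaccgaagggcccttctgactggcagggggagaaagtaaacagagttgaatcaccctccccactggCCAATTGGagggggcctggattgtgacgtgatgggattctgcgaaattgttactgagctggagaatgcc
Klf6: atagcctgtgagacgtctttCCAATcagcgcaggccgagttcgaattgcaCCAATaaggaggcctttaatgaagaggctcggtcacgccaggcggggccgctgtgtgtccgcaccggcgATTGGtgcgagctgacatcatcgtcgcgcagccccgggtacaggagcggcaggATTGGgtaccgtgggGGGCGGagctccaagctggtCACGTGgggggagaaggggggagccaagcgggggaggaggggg
Klf7: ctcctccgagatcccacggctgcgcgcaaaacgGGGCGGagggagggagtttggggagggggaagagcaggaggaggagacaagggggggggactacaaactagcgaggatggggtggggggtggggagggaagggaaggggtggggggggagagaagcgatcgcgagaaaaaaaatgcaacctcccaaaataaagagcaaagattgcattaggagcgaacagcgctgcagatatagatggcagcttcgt
Klf13: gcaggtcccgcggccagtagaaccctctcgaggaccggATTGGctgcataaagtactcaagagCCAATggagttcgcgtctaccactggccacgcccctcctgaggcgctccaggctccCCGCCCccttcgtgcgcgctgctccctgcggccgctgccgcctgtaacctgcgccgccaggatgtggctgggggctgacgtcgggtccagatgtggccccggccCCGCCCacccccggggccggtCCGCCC
Klf15: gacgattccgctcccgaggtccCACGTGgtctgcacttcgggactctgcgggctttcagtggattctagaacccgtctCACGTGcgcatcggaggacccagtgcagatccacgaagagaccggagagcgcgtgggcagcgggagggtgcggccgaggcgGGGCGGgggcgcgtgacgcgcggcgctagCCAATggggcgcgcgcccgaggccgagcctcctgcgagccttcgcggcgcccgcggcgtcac

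RefSeq windows were found for 9 of the 10 genes, all but Klf10. A GC box stood in 8 of the 9 windows, against 32.7% of 32851 promoter windows of the same length, and Klf9 was the 1 without it. An E-box stood in 4 of 9 (Klf4, Klf6, Klf11 and Klf15), against 6.0% of all windows, and Klf15 held 2. A CCAAT box stood in 5 of 9, against 33.8%. Klf6 held 4 CCAAT boxes and Klf9 held 3, of which a pair on opposite strands overlap. The CACCC box CCACCC, which is not in capitals, stood in 4 of 9 (Klf2, Klf3, Klf7 and Klf13), against 28.1%, and can overlap a GC box. These matches describe letters in a window and are not sites of binding. The 9 windows held 59.2% to 78.4% G and C, and the windows they were compared with were not matched for this. Of the growth-restraining pair, Klf4 held 4 GC boxes, some of them overlapping, and Klf9 none, while both held the core TGACG of the cyclic AMP response element (both strands), which stood in 5 of 9 windows against 17.8% of all. The AP-1 site TGANTCA stood in 1 of 9 (Klf9), against 6.7%, and the TATA box TATAAA in 0 of 9, against 12.4%.

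Depth was 24494253 to 27097438 counts per library, and 3 counts correspond to at most 0.126 CPM (counts per library depth after TMM scaling), a limit that covers counting error only. The cells held more than ganglion cell RNA. Of the defining ganglion cell genes, Rbpms was at 2.75 to 8.58 CPM, Slc17a6 at 0.241 to 19.2 CPM and Pou4f1 at 0 to 0.754 CPM, while the rod transducin gene Gnat1 was at 4421 to 10230 CPM and Glul, the glutamine synthetase of Mueller glia, at 522 to 1831 CPM. The 19 ganglion cell markers used summed to 261 to 593 CPM, amacrine markers to 740 to 2232 CPM and microglial markers to 13.8 to 19.5 CPM. In bulk samples, fewer cells of a type and less RNA per cell cannot be told apart. MCS replicate 1 stood apart in 5 nuclear retained RNAs, which summed to 1356 CPM against 363 to 435 CPM in the other 3 libraries, and in 26 immediate early genes, which summed to 5902 CPM against 2900 to 3702 CPM. Crat itself was at 72.5 and 49.9 CPM with CrAT and at 38.3 and 47.7 CPM with MCS, a log2 fold change of 0.51 (SE 0.33) that did not pass (edgeR, adjusted p = 1).

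Per length, the family spanned a wide range of levels. In the deposited FPKM (fragments per kilobase of exon, scaled to the reads counted), Klf9 averaged 20.5 over the 4 libraries and Klf6 20.2, followed by Klf15 at 15.2 and Klf10 at 8.94. Klf13 averaged 3.38 FPKM, Klf3 3.15, Klf11 1.48, Klf7 1.22, Klf4 0.720 and Klf2 0.180. The ranges over libraries of neighbours in this order overlapped except between Klf10 and Klf13, and between Klf3 and Klf11. The order of Klf9, Klf6 and Klf15 was therefore within their spread, while Klf10, at 6.24 to 12.1 FPKM, lay below Klf9 and Klf6 in range. Of the growth-restraining pair Klf9 was thus far above Klf4, and of the growth-promoting pair Klf6 was far above Klf7, with no overlap of ranges in either pair (13.6 to 27.2 against 0.270 to 1.27 FPKM, and 13.0 to 33.8 against 0.958 to 1.61 FPKM).

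**Figure D1:**
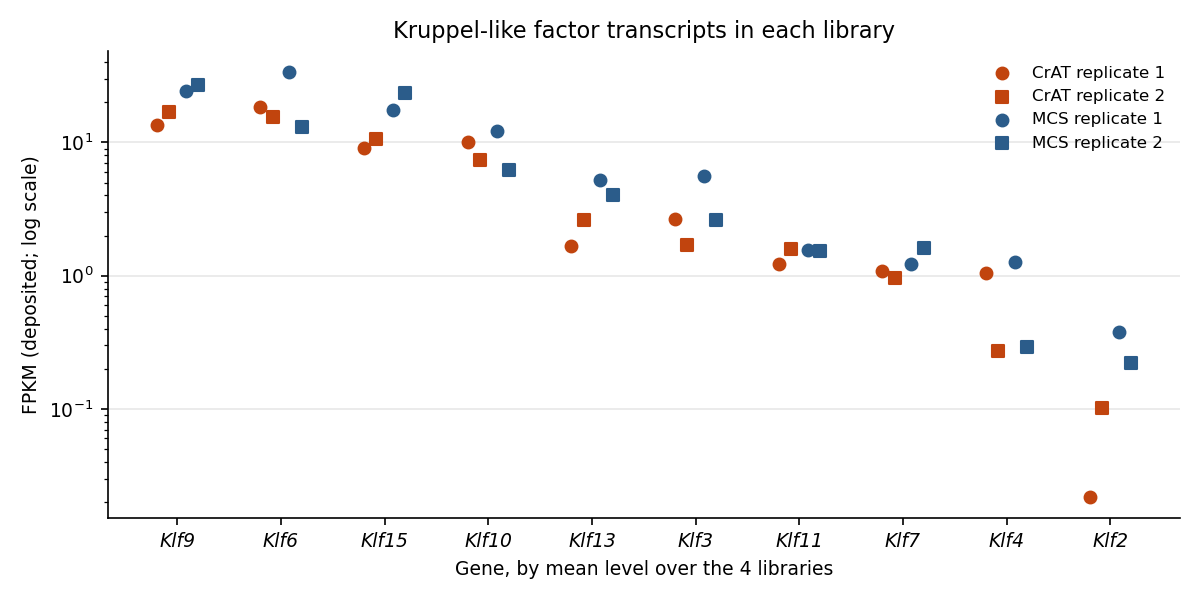
Deposited FPKM (log axis) of the 10 Kruppel-like factor genes in each library, ordered by their mean over the 4 libraries, with 1 point per library. Klf9 and Klf6 are highest, Klf2 lowest, and both CrAT points lie below both MCS points in Klf2, Klf7, Klf9, Klf13 and Klf15.

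All 10 genes had a log2 fold change (CrAT over MCS) below 0, with a median of -0.57, where 49.4% of the 19638 genes tested were below 0 and their median was 0.01. None of the 10 passed an adjusted p of 0.05 in edgeR's quasi-likelihood test, nor did any of all genes tested (0%). At an unadjusted p under 0.05 Klf9, Klf13 and Klf15 were lower in CrAT, 3 of 10 against a background of 2.87% of genes. The 2 CrAT libraries were under both MCS libraries in 5 of 10 (Klf2, Klf7, Klf9, Klf13 and Klf15), against 16.6% of genes tested. DESeq2 called 54 genes in all (0.275%), and none of the 10. Without MCS replicate 1 the number below 0 was 7 of 10. The number at an unadjusted p under 0.05 was 0 when CrAT replicate 1 was left out and 1 when CrAT replicate 2 was.

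**Figure D2:**
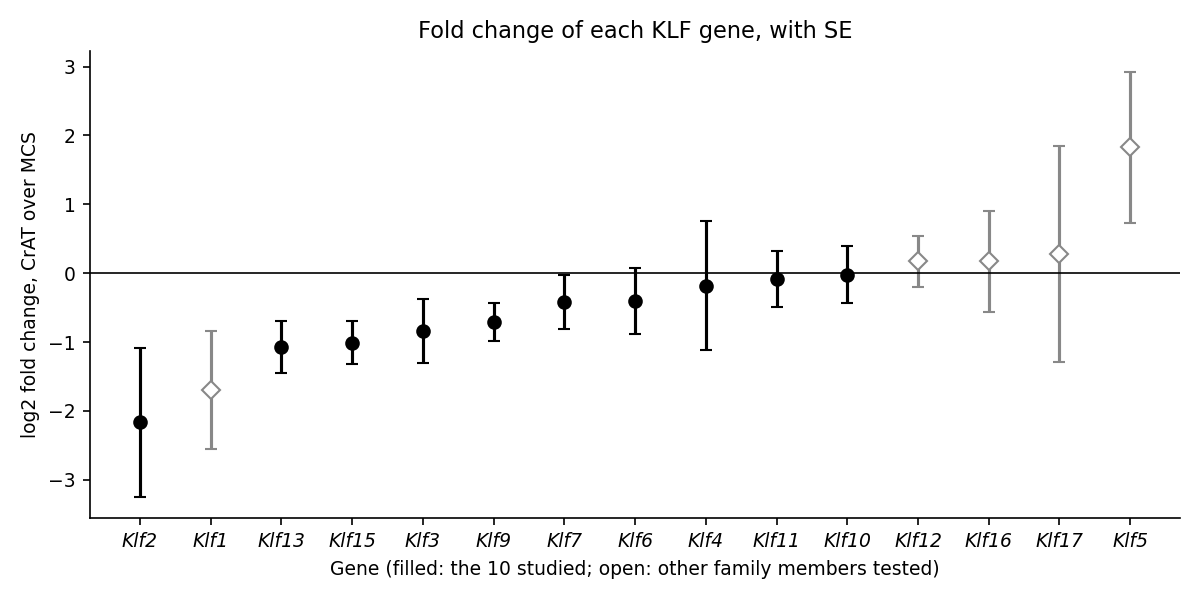
Log2 fold change, CrAT over MCS, of each Kruppel-like factor gene tested, for the 10 genes examined (filled) and 5 other family members (open). Bars are the standard error derived from the F statistic of edgeR. The 10 filled points all lie below 0, and of the open points Klf1 alone does.

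Of the growth-restraining genes, Klf9 was lower in both CrAT libraries. Klf9 (ENSMUSG00000033863, placed by the count table on chromosome 19 from 23118590 to 23145498, plus strand, build not named) was at 67.5 and 81.7 CPM with CrAT (replicates 1 and 2) and at 116 and 129 CPM with MCS. The groups did not overlap, and the replicates of each lay close together. The CrAT mean was 74.6 ± 10.1 CPM and the MCS mean 122 ± 8.87 CPM (SD, n = 2 each), so MCS was 1.64-fold higher. The log2 fold change was -0.71 (SE 0.28) and did not pass over all genes (edgeR, unadjusted p = 0.0412, adjusted p = 1). It lay between -0.84 and -0.58 when each library was left out in turn.

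Klf4 gave another picture. Klf4 (ENSMUSG00000003032, chromosome 4, 55527143 to 55532466, minus strand) was at 3.31 and 0.830 CPM with CrAT (replicates 1 and 2) and at 3.82 and 0.869 CPM with MCS. The groups overlapped, and the high values were those of replicate 1 in both. These rested on 79 and 95 counts, against 22 and 24 counts in the libraries numbered 2. The ratio of replicate 1 to replicate 2 was 3.99 in CrAT and 4.40 in MCS, and 104 of 19638 genes (0.53%) had a ratio at least as high as the lower of these in both groups. The log2 fold change was -0.18 (SE 0.93; edgeR, adjusted p = 1), and it turned to 0.52 when CrAT replicate 2 was left out and to 1.25 when MCS replicate 1 was. The 11 rod markers used also summed higher in the libraries numbered 1, at 31670 and 27270 CPM against 16540 and 16100 CPM, and their part in the Klf4 values was not tested. In endothelium Klf4 and Klf2 respond to blood flow. The 12 endothelial markers summed to 477 and 378 CPM with CrAT and to 864 and 486 CPM with MCS. Most of this came from Kdr, at 205 to 594 CPM, and Flt1, at 51.0 to 244 CPM, named after their values were seen. The defining marker Cdh5 was at 0 in all 4 libraries, which allows up to 0.126 CPM, with Cldn5 at 0 to 0.628 CPM. Pecam1 was higher in CrAT, at 1.55 and 0.943 CPM against 0.402 and 0.543 CPM with MCS. Of the 9 endothelial markers tested, 5 were lower in CrAT (49.4% of all genes were) and 4 higher. With no overlap, 2 were lower (16.6% of all genes) and 2 higher (2952 of 19638 genes). The part of these markers was not tested.

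Neither growth-promoting gene differed between the vectors beyond the spread of replicates. Klf6 (ENSMUSG00000000078, chromosome 13, 5911481 to 5920393, plus strand) is known as an injury-induced factor in regenerating neurons. Klf6 was at 84.0 and 68.8 CPM with CrAT (replicates 1 and 2) and at 146 and 55.9 CPM with MCS, so that both CrAT libraries lay between the MCS libraries. The log2 fold change was -0.40 (SE 0.48; edgeR, adjusted p = 1), and without MCS replicate 1 it was 0.45. That library also held the highest sum of immediate early genes and of nuclear retained RNA, given above, whose part in the Klf6 value was not tested. Klf7 (ENSMUSG00000025959, chromosome 1, 64068606 to 64161441, minus strand), which controls growth and survival of sensory neurons in development, was at 9.09 and 7.85 CPM with CrAT and at 9.81 and 12.9 CPM with MCS. The groups did not overlap, but the nearest libraries were only 9.09 and 9.81 CPM. The log2 fold change of Klf7 was -0.42 (SE 0.39; edgeR, adjusted p = 1), and it was -0.21 without MCS replicate 2 and -0.60 when MCS replicate 1 was left out.

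Restraining and promoting genes were set against each other in each library as the mean log2 CPM of Klf4 and Klf9 minus that of Klf6 and Klf7. The size of this number depends on the levels of the genes, and it is read here only between libraries. It was -0.88 and -1.44 in CrAT replicates 1 and 2 and -0.84 and -1.29 in MCS replicates 1 and 2. The groups overlapped, with a mean of -1.16 ± 0.40 in CrAT and -1.06 ± 0.32 in MCS (SD, n = 2 each). The difference of -0.10 was smaller than the spread between replicates. With 2 libraries against 2, an exact permutation test cannot give a two-sided p below 0.333, and none was run. Leaving out a library was examined with a related measure, the refitted edgeR log2 fold changes of the same genes combined likewise. On that measure the difference was 0.31 without MCS replicate 1, and -0.49 when CrAT replicate 1 was left out. This measure differs from the -0.10 above, and was -0.04 with all libraries scaled by library totals only. In log2 CPM by single pairs, the difference of CrAT from MCS was 0.12 for Klf4 minus Klf6 and 0.28 for Klf4 minus Klf7. It was -0.47 for Klf9 minus Klf6 and -0.31 for Klf9 minus Klf7. The groups overlapped in all 4 pairs, so a shift of the balance between restraining and promoting genes was not detectable in these libraries.

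**Figure D3:**
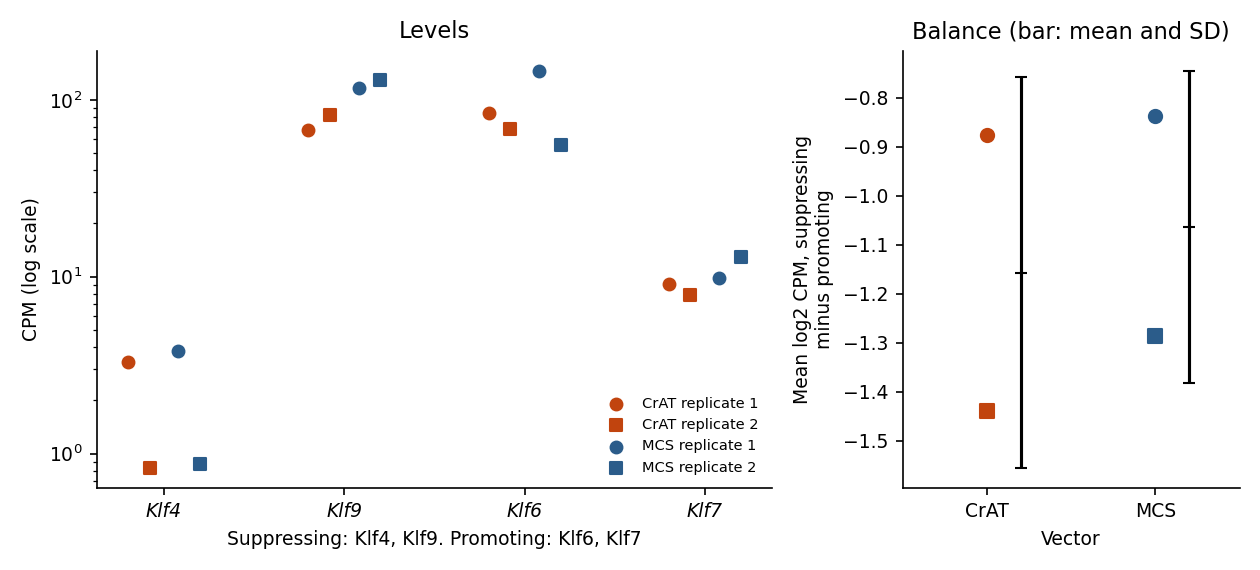
Left, CPM (log axis) of growth-restraining Klf4 and Klf9 and growth-promoting Klf6 and Klf7 in each library, and right, the mean log2 CPM of the first pair minus that of the second, with the group mean and SD as bars. Klf4 separates the libraries numbered 1 from those numbered 2, Klf9 separates the vectors, and the balance overlaps between them.

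Klf13 and Klf15 were lower in CrAT by about the same factor. Klf13 (ENSMUSG00000052040, chromosome 7, 63536099 to 63588663, minus strand), a close relative of Klf9 that represses through Sin3, was at 12.9 and 19.7 CPM with CrAT and at 38.8 and 29.8 CPM with MCS. The groups did not overlap. The mean was 16.3 ± 4.80 CPM against 34.3 ± 6.39 CPM (SD, n = 2 each), 2.10-fold higher in MCS, with a log2 fold change of -1.07 (SE 0.37; edgeR, unadjusted p = 0.0269, adjusted p = 1). The library kit does not mark the strand, and the noncoding gene Gm27252 lies across Klf13 on the opposite strand with 83 to 148 counts, against 308 to 965 counts for Klf13. Reads of such a pair cannot be told apart where exons overlap, and only the whole gene spans were compared here. The noncoding gene Gm20033 likewise overlaps the span of Klf3 on the opposite strand, with 47 to 96 counts.

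Klf15 (ENSMUSG00000030087, chromosome 6, 90439558 to 90452220, plus strand), a regulator of amino acid and glucose metabolism, had the smallest p of the family. It was at 26.2 and 29.7 CPM with CrAT and at 48.1 and 64.5 CPM with MCS. The groups did not overlap, and the spread was larger in MCS. The mean was 27.9 ± 2.45 CPM against 56.3 ± 11.6 CPM (SD, n = 2 each), 2.02-fold higher in MCS. The log2 fold change was -1.01 (SE 0.31; edgeR, unadjusted p = 0.0165, adjusted p = 1), and it stayed between -1.21 and -0.78 when each library was left out. In DESeq2 the adjusted p of Klf15 was 0.557, the smallest of the 10 there.

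Markers of Mueller cells, the radial glia that span the retina, moved with Klf9, Klf13 and Klf15. All 13 markers were lower in CrAT, against 49.4% of all genes, and 10 had no overlap, against 16.6%. The median log2 fold change was -0.98. They summed to 15640 and 12770 CPM with CrAT and to 23580 and 21120 CPM with MCS. The secreted chaperone Clu was the most abundant in every library, at 7279 and 6271 CPM against 9781 and 8944 CPM. Dkk3 was at 2752 and 2551 CPM against 4215 and 2600 CPM, and the lipid carrier Apoe at 2432 and 1813 CPM against 3955 and 4852 CPM. The log2 fold change was -0.47 for Clu and -0.36 for Dkk3, nearer 0 than the median, and -1.05 for Apoe. The sum thus rests most on Clu. None of the 13 markers was at 0 in any library. Per 1000 CPM of these markers, a scaling chosen after the data were seen, Klf9 was at 4.32 and 6.40 in CrAT and 4.92 and 6.09 in MCS, so the groups overlapped. Klf15 was at 1.67 and 2.32 against 2.04 and 3.06 on that scale, and Klf13 at 0.825 and 1.54 against 1.65 and 1.41, again with overlap. The log2 difference of CrAT from MCS there was -0.06 for Klf9, -0.43 for Klf13 and -0.34 for Klf15. Since the summed markers were lower in CrAT, dividing by them raises every gene in CrAT. Of the 10 genes, Klf2 alone kept both CrAT libraries below both MCS libraries on that scale, and Klf10 and Klf11 had both above. All 5 astrocyte markers tested were also lower, with a median of -0.535. The defining astrocyte marker Pax2 had 1 count in replicate 1 of each vector and 0 in the libraries numbered 2, too few to test. Whether the astrocyte list measured astrocytes or Mueller cells cannot be told from these bulk samples. Of ganglion cell markers 13 were higher and 4 lower (median 0.365), and of amacrine markers 9 were higher and 1 lower (median 0.472). Only 1 of 17 ganglion cell and 1 of 10 amacrine markers tested were higher with no overlap, against 2952 of 19638 genes. Both sums were higher in the libraries numbered 2. Ganglion cell markers summed to 329 and 593 CPM with CrAT and 261 and 445 CPM with MCS, and amacrine markers to 840 and 2232 CPM against 740 and 1357 CPM. Bipolar cell markers were split, with 6 higher and 5 lower. The part of the glial and neuronal markers in the Klf values was not tested.

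**Figure D4:**
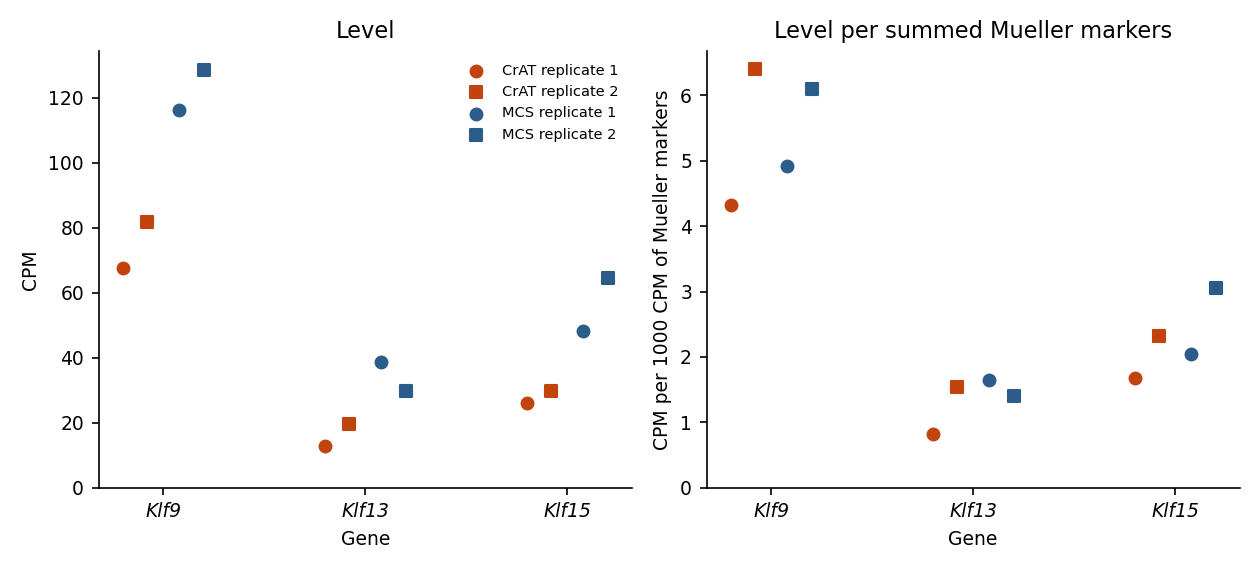
Klf9, Klf13 and Klf15 in each library as CPM (left) and per 1000 CPM of 13 summed Mueller glia markers (right), with 1 point per library. Both CrAT libraries lie below both MCS libraries on the left for each gene, and the groups overlap on the right. The summed markers were themselves lower in CrAT.

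Klf3, the CtBP-recruiting repressor, was at 31.2 and 19.4 CPM with CrAT and at 61.8 and 29.0 CPM with MCS. CrAT replicate 1 lay above MCS replicate 2, and the log2 fold change of -0.84 (SE 0.47; edgeR, adjusted p = 1) was -0.19 without MCS replicate 1. Klf10 and Klf11, which transforming growth factor beta induces early, showed the smallest differences. Klf10 was at 43.2 and 31.0 CPM with CrAT and at 49.9 and 25.6 CPM with MCS, with a log2 fold change of -0.02 (SE 0.42). Klf11 was at 5.49 and 6.94 CPM with CrAT and at 6.68 and 6.56 CPM with MCS, with a log2 fold change of -0.09 (SE 0.41). In both genes the groups overlapped. Klf2, the flow-induced factor of endothelium and of resting T cells, had 1 and 5 counts in CrAT and 17 and 11 counts in MCS. CrAT replicate 1 lay under the limit of 3 counts, and the log2 fold change of -2.16 (SE 1.08; edgeR, adjusted p = 1) rests on these few counts.

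The other family members were mixed. Of 7 other members, Klf8 and Klf14 were too low to test, with Klf14 at 0 counts and Klf8 at 15 counts in CrAT replicate 2 and 0 elsewhere. Of the 5 tested, 4 had a log2 fold change above 0, and the median was 0.17 (-0.19 to 0.82 with 1 library left out). Klf12, a CtBP-recruiting relative of Klf3 and the most abundant of them per length, was at 26.9 and 42.8 CPM with CrAT and at 25.5 and 36.5 CPM with MCS. Klf16, of the Sin3 group with Klf9 and Klf13, was at 1.55 and 3.81 CPM against 1.21 and 3.55 CPM. Both genes overlapped between the groups and were higher in the libraries numbered 2. Klf5 was at 1.59 and 0.377 CPM against 0.442 and 0.109 CPM, and like Klf4 it was higher in the libraries numbered 1. Klf17 was at 1.42 and 0 CPM against 0.402 and 0.760 CPM. Klf1, the erythroid factor, had 4 and 6 counts in CrAT and 18 and 16 in MCS, with no overlap (log2 fold change -1.70, SE 0.86; edgeR, adjusted p = 1).

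Genes that work with the family were taken from fixed lists. None of the genes in these lists passed an adjusted p of 0.05 in edgeR. Of the Sp factors, which bind the same GC boxes, 7 were tested and 5 were lower in CrAT (49.4% of all genes were), 4 of them with no overlap (16.6%), and the median log2 fold change was -0.42. Sp1 was at 11.0 and 11.1 CPM with CrAT and at 25.8 and 15.9 CPM with MCS. Sp7 had the smallest p in this list, at 0.796 and 0.151 CPM against 4.91 and 1.56 CPM (unadjusted p = 0.0284). Without MCS replicate 1 the median of the Sp list was -0.08. Of 18 corepressors, coactivators and kinases known to act with Kruppel-like factors, 8 were higher and 10 lower, with a median of -0.02. The acetyltransferase Ep300 was at 21.0 and 21.2 CPM with CrAT and at 42.3 and 30.1 CPM with MCS. Mapk10, the neuronal JNK kinase known to act with Klf9 on axon growth, was at 131 and 142 CPM against 85.6 and 102 CPM.

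Hormone response genes were compared because glucocorticoid and thyroid hormone are known inducers of Klf9, and glucocorticoid of Klf15. Of 20 receptors and target genes, 19 had a log2 fold change below 0, with a median of -0.58, and 10 had both CrAT libraries below both MCS libraries, against 16.6% of all genes. Tsc22d3, the glucocorticoid-induced leucine zipper gene, was at 59.2 and 91.0 CPM with CrAT and at 139 and 176 CPM with MCS. Zbtb16 was at 1.80 and 4.19 CPM against 8.73 and 14.1 CPM, a log2 fold change of -1.93 (SE 0.57). Hr, a corepressor induced by thyroid hormone, was at 22.8 and 26.0 CPM against 52.7 and 43.3 CPM. Sult1a1 was at 7.96 and 6.11 CPM against 15.1 and 24.5 CPM. In these 4 genes the groups did not overlap, and 6 of the 20 were lower at an unadjusted p under 0.05, against 2.87% of all genes. Fkbp5, chosen after its values were seen as a standard glucocorticoid target, overlapped, at 45.7 and 75.8 CPM against 35.5 and 94.3 CPM. The Mueller glia markers given above moved in the same libraries, and their part was not tested.

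**Figure D5:**
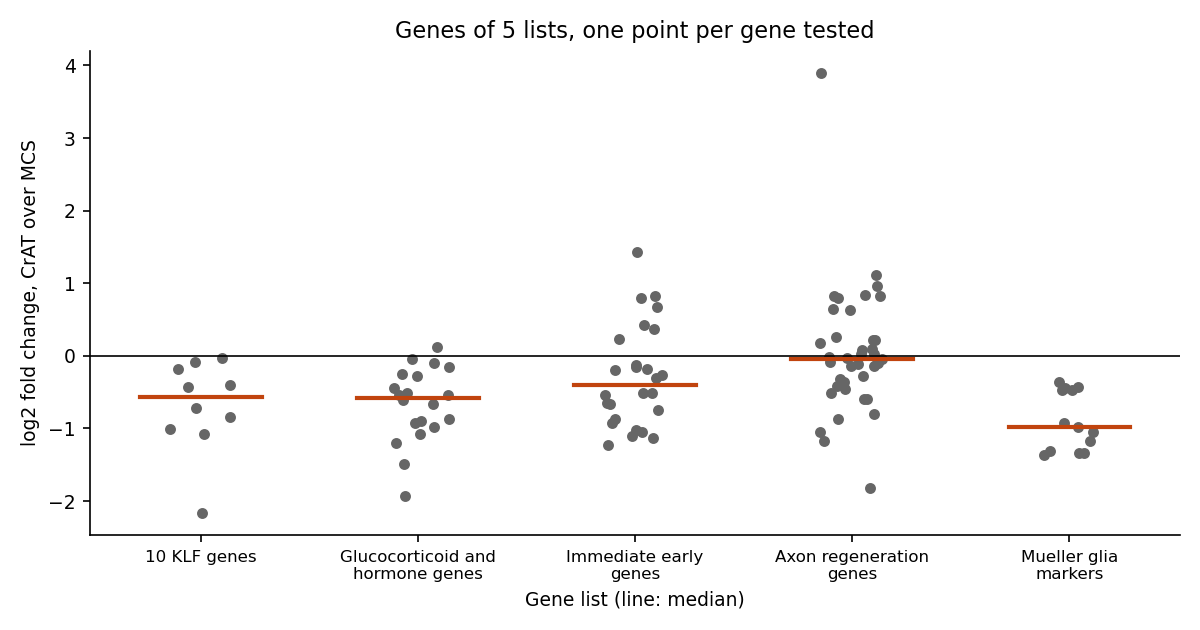
Log2 fold change, CrAT over MCS, of every gene tested in 5 lists, with 1 point per gene and the median as a line. The medians are -0.57 for the 10 Kruppel-like factor genes, -0.58 for hormone response genes, -0.40 for immediate early genes, -0.05 for axon regeneration genes and -0.98 for Mueller glia markers.

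Klf4, Klf6 and Klf10 behave as early response genes in many cells, so the immediate early genes were set beside them. Of 26 tested, 19 were lower in CrAT (49.4% of all genes were) and 9 of them had no overlap (16.6%), with a median log2 fold change of -0.40 that was 0.00 without MCS replicate 1. Junb was at 228 and 210 CPM with CrAT and at 556 and 405 CPM with MCS, a log2 fold change of -1.13 (SE 0.31). The phosphatase gene Dusp1, which the hormone list also holds, was at 251 and 203 CPM against 519 and 340 CPM. Of 39 axon regeneration genes tested, 17 were higher and 22 lower, with a median of -0.05 (-0.26 to 0.03 with 1 library left out). Ptn, a growth factor of glia and neurons, was at 45.1 and 28.3 CPM with CrAT and at 93.5 and 72.1 CPM with MCS. The neuropeptide gene Gal was at 2.22 and 32.7 CPM against 0.402 and 1.92 CPM. Of 19 clock genes, to which Klf9, Klf10 and Klf15 are linked as daily oscillating genes, 13 were lower, with a median of -0.15 (-0.35 to 0.03 likewise), and Ciart was at 25.7 and 27.2 CPM against 51.3 and 42.1 CPM. Of 15 genes tested in a list for transforming growth factor beta (ligands, receptors and Smad factors beside early targets), 11 were lower. The median of the 15 was -0.41 (-0.18 without MCS replicate 1, -0.13 when CrAT replicate 2 was left out). Bambi was at 50.3 and 44.9 CPM against 88.1 and 87.5 CPM. The regeneration and immediate early lists share Jun, Atf3 and Myc. Jun was at 284 and 247 CPM with CrAT and at 756 and 346 CPM with MCS. Atf3 was at 84.7 and 63.9 CPM against 65.0 and 20.5 CPM and Myc at 5.24 and 1.55 CPM against 2.33 and 1.49 CPM, with overlap of the groups in both and log2 fold changes of 0.80 (SE 0.55) and 0.83 (SE 0.70).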

How the data were processed

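The authors deposited read counts and FPKM values by gene in separate tables, with 1 column for each of 4 libraries of sorted retinal cells, 2 CrAT and 2 MCS by their titles. Per the labels' protocols, cDNA was made from total RNA with a low-input SMART-seq kit. STAR 2.7.2b is named in the submitters' processing notes, beside GRCm38.p6 and mm10 as builds, while the counter is not given in the sources used here. Multiplying the deposited FPKM by exon length gave estimated counts within 0.5 of the deposited ones, and 41.9% to 43.2% of these were more than 0.02 from a whole number, so rounding by the authors was assumed. Whole counts had been planned for, and the test is unchanged. A GRCm38 annotation shared 51898 identifiers with the count table and the position of 1402, so the table's coordinates are not of that build. The tables held 4 columns of other samples, which were not used.

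Genes were kept by edgeR's filterByExpr (19638 genes) and scaled by TMM (factors 0.970 to 1.02), and CPM is on that scale. Groups were compared by the two-sided quasi-likelihood test of edgeR 4.0.16 in R 4.3.3, with a term for group, 2 residual degrees of freedom, and Benjamini-Hochberg adjustment over all genes kept. Log2 CPM used a prior count of 2. The quasi-likelihood test gives no SE, so SE is the absolute log2 fold change divided by the square root of the F statistic. Alternatives were DESeq2 1.42.0, limma 3.58.1 on log2(FPKM + 0.1), other scalings, no filter, the replicate number as a block and leaving out each library. The edgeR step was checked on simulated data. Promoter windows came from RefSeq. The members and gene lists were chosen with earlier results of these data known, and the nuclear retained list after its values were. Named were all 10 members, the other family members and up to 4 genes of the smallest p in each list. Genes named outside that rule include Fkbp5, and Atf3 and Myc, which the regeneration and immediate early lists share. Values of some listed genes are not reported here.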

Additional observations from a re-analysis of the deposited data

How the results depend on the processing

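No gene passed in edgeR with other size factors, library totals, the replicate number as a block or any library left out (0 genes), nor in limma on FPKM, while 2 passed with no filter on low counts and 54 in DESeq2. None of the 10 genes passed under any setting. The number of the 10 below 0 was 7 to 10, their median log2 fold change was -0.83 to -0.40, the number lower at an unadjusted p under 0.05 was 0 to 3 and the balance of restraining and promoting genes was -0.49 to 0.31, over fits that left out 1 library each. Such a fit assumes that the lone library varies like the others. Klf2, Klf3, Klf7, Klf9, Klf13 and Klf15 kept a negative log2 fold change in every fit. With 1 library left out, Klf4 ranged from -1.49 to 1.25 (above 0 without MCS replicate 1, and at 0.52 without CrAT replicate 2), Klf6 from -0.93 to 0.45 (above 0 without MCS replicate 1), Klf10 from -0.42 to 0.54 (above 0 without MCS replicate 1, and at 0.22 without CrAT replicate 2) and Klf11 from -0.25 to 0.07 (above 0 without CrAT replicate 1). The cause was not tested. With the replicate block the log2 fold change of Klf10 was 0.034, the number of the 10 at an unadjusted p under 0.05 was 4 (Klf3 was added) and the count over all genes was 1922 against 815 without it. The labels give no shared origin to libraries of the same number, whose deviations from their group means correlated at 0.39 across genes. Per summed Mueller glia markers, a scaling added after the data were seen, Klf4 was 0.52, Klf6 0.41, Klf7 0.25, Klf10 0.69 and Klf11 0.56, as that division by lower sums in CrAT raises every gene there. The level order was the same per kilobase from the counts. Klf2, Klf4 and Klf1 are limited by their few counts.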
